A study of Mus musculus with 4 samples.

Results

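Peroxisome proliferator-activated receptors (PPARs) and the enzymes that burn fatty acids were followed as a group of 39 genes in alveolar macrophages (AM), the resident phagocytes of the airspace, taken from untreated mice with and without TREM-2. The genes were chosen by name and role: the PPARs and their RXR partners, the PGC-1 coactivators, well known direct PPAR targets, and the proteins of fatty acid uptake, activation, carnitine transfer and mitochondrial or peroxisomal beta-oxidation. Of the 39 genes, 36 were measured by a probe set of their own, out of 19946 genes tested. *Ucp2*, *Acsl1* and *Acsl3* were not analysed here, because no probe set names them alone.

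The TREM2-/- group was AM of mice homozygous for a targeted *Trem2* allele, on a C57/Blk6 background after 10 generations of backcrossing. The WT group was AM of wild type C57/Blk6 mice, bought from a supplier and bred in the same facility. Animals of both groups were 8 to 10 weeks old, and the labels name no further allele or treatment. The *Trem2* allele was present in the whole animal, not only in macrophages. AM were recovered by bronchoalveolar lavage and pooled over mice, and each genotype was hybridized to 2 Affymetrix mouse gene arrays.

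The submitters call the arrays of a genotype biological duplicates, but the size of the pools, and whether they came from separate mice, are not given. The p-values thus set the difference between genotypes only against how far arrays of 1 genotype differ, and part of that spread may be technical. On the log2 scale used throughout, a difference of 1 is a doubling of signal, and every difference is TREM2-/- minus WT. Signals of different genes are not comparable on such arrays, so levels are compared between genotypes, for the same gene or the same list of genes.

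PPARs are nuclear receptors that bind fatty acids and their derivatives and, paired with an RXR, switch on genes of lipid storage and fatty acid oxidation. Long-chain fatty acids are taken up, joined to coenzyme A, carried into mitochondria by the carnitine shuttle and shortened stepwise by dehydrogenase, hydratase and thiolase reactions, with the electrons passed on by the electron transfer flavoproteins. In AM, which handle the lipids of surfactant, PPAR-gamma is known as a factor of cell identity, while PPAR-delta is known as a lipid sensor of macrophages. The study followed PPAR-delta in TREM-2-deficient AM, and the comparison here asks whether transcripts of PPARs, of their targets and of fatty acid oxidation differed at baseline.

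*Trem2* gave log2 values of 7.64 and 7.45 in TREM2-/- AM against 9.58 and 9.74 in WT AM, a log2 difference of -2.11 (adjusted p = 0.0009 from limma), in the direction the labels give. Of 21 AM markers 18 were measured, and none lay below the lower quartile of the arrays, which was 4.39 to 4.40 on the log2 scale. None of the 18 passed the test downward, and *Car4* and *Fabp1* passed it upward. The log2 differences of the 18 ranged from -0.43 for *Slc39a2* to 0.90 for *Car4*, with a median of -0.010. *Siglecf* differed by -0.21 and *Marco* by 0.18. Markers of interstitial or monocyte-derived macrophages differed more, with 11 of 19 measured genes higher in TREM2-/- AM and none lower. Of those that did not pass, *Tmem176a* differed by 0.79 and *Fcgr1* by 0.54. *Folr2*, *Lyve1*, *Mgl2* and *Maf* differed by -0.065, -0.094, -0.23 and -0.011. The summed signal of all 19 on the linear scale was 23730 to 24250 in TREM2-/- AM and 14533 to 14768 in WT AM. The summed signal of the 18 AM markers was 53440 to 54908 in TREM2-/- AM and 54462 to 54988 in WT AM. Of 16 lung epithelial markers 2 were higher, with sums of 1883 to 1885 in TREM2-/- AM and 1529 to 1601 in WT AM. The epithelial markers ranged in log2 difference from -0.45 for *Cdh1* to 1.23 for *Cldn18*, with a median of 0.075 and *Epcam* at -0.085. None of 10 neutrophil, 8 T and NK cell, 5 B cell and 6 adipocyte markers passed the test in either direction. The neutrophil sum was 957 to 984 in TREM2-/- AM and 822 to 853 in WT AM. Its markers ranged in log2 difference from -0.28 for *Cxcr2* to 0.64 for *Csf3r*, with *Ly6g* at 0.018. The adipocyte sum was 421 to 434 in TREM2-/- AM and 389 to 396 in WT AM. Its markers ranged from -0.15 for *Pck1* to 0.21 for *Cidec*, which is also on the list of AM markers. A linear sum weighs the genes of strongest signal most. The T and NK cell sum was 249 to 270.2 in TREM2-/- AM and 250.1 to 262 in WT AM, and the B cell sum was 185 to 195 in TREM2-/- AM and 169 to 195 in WT AM. What share these cell types had in the values below was not tested. In bulk RNA, fewer cells of a type and less RNA per cell cannot be told apart.

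Differences between the genotypes in the 36 genes of PPAR signalling and fatty acid oxidation were small. Of the 36, 0 passed limma upward and 0 downward at an adjusted p below 0.05, where 0.431% of all genes passed upward and 0.135% downward. At an unadjusted p below 0.05, 2 were higher, the PPAR targets *Pdk4* and *Angptl4*, and 1 was lower, the acyl-CoA synthetase gene *Acsl4*, against 4.64% and 6.9% of all genes. Significance analysis of microarrays (SAM) called none of the 36. The methods' t-test, without adjustment, called *Cpt1a* and *Pdk4* higher and *Acsl4* lower, against 3.92% and 5.27% of all genes, and after Benjamini-Hochberg adjustment it called no gene at all. The median log2 difference of the 36 genes was 0.016, against -0.021 for all genes, with 19 genes above 0 and 17 below. The log2 differences ranged from -0.22 for *Acsl4* to 0.33 for *Angptl4*, and 22 (61.1%) lay within 0.1 of 0, against 58.0% of all genes.

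In 8 genes both TREM2-/- arrays lay above both WT arrays, against 17.4% of all genes. In 9 genes both lay below, against 25.4% of all genes, and in the other 19 the arrays of the genotypes overlapped. The share of the 36 genes whose arrays stood apart was thus near that of all genes in either direction.

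**Figure D1:**
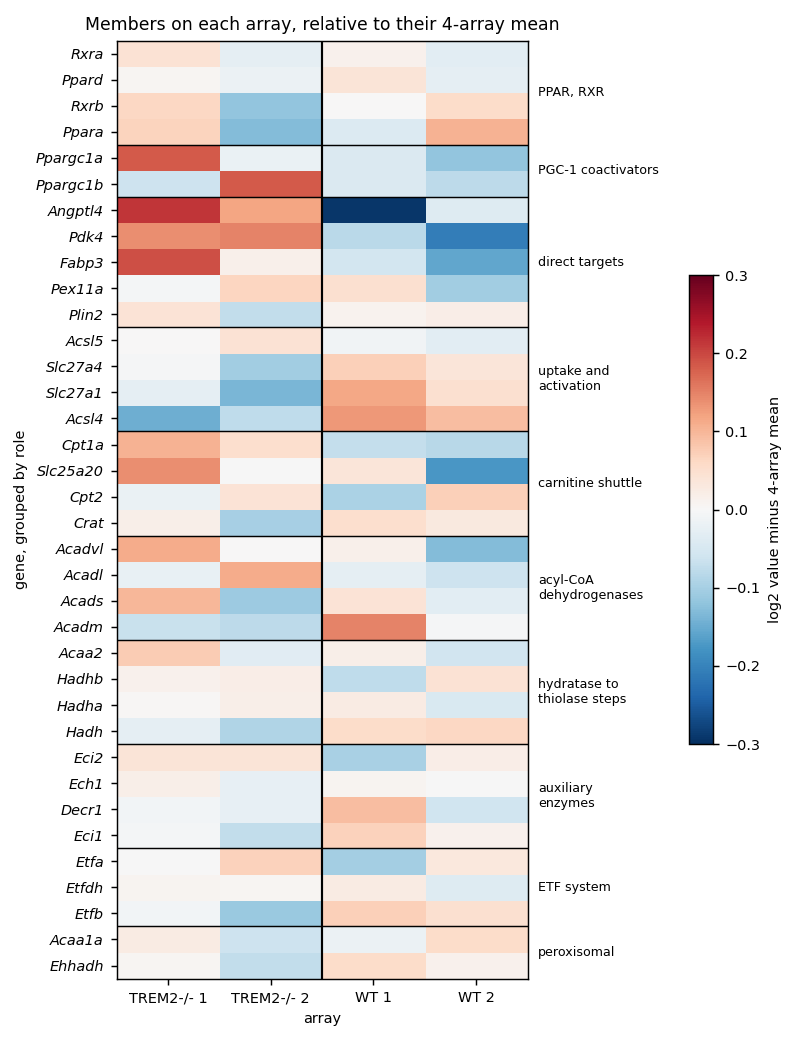
Deviation of each log2 value from the gene's mean over 4 arrays (colour, log2 units), for 36 genes in rows grouped by role and the TREM2-/- and WT arrays in columns. *Angptl4*, *Pdk4* and *Cpt1a* are red on both TREM2-/- arrays and blue on both WT arrays, and *Acsl4* is the reverse.

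The receptors themselves differed by less than 0.1 between the genotypes. *Ppard*, which encodes PPAR-delta, gave 8.28 and 8.25 in TREM2-/- AM against 8.31 and 8.24 in WT AM, a log2 difference of -0.012 with a 95% interval of -0.19 to 0.17 (adjusted p = 0.967 from limma). The TREM2-/- values lay between the WT values. *Ppara*, which encodes PPAR-alpha, the receptor known from fatty acid oxidation in liver, gave 5.09 and 4.90 in TREM2-/- AM against 4.99 and 5.13 in WT AM, a log2 difference of -0.064 (interval -0.30 to 0.18). *Rxra*, an RXR partner of the PPARs, gave 9.51 and 9.44 in TREM2-/- AM against 9.48 and 9.44 in WT AM, a log2 difference of 0.017 (interval -0.16 to 0.20). *Rxrb*, another partner, differed by -0.055 (interval -0.27 to 0.16). The arrays overlapped in all 4 receptor genes, and no interval reached a 1.5-fold difference.

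The PGC-1 coactivators, which dock on PPARs and drive mitochondrial genes, were both above 0 without passing the test. *Ppargc1a* gave 4.38 and 4.17 in TREM2-/- AM against 4.15 and 4.08 in WT AM, a log2 difference of 0.16 (interval -0.065 to 0.39). All of these values lay below the lower quartile of the arrays, the only gene among the 36 to do so. A second, dimmer probe set of *Ppargc1a* differed the other way, by -0.39, so its direction is not settled. *Ppargc1b* gave 6.95 and 7.19 in TREM2-/- AM against 6.97 and 6.93 in WT AM. Its log2 difference of 0.12 (interval -0.12 to 0.36) rested on TREM2-/- replicate 2, and without that array it was -0.0022.

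Among the direct PPAR targets outside beta-oxidation, 4 of 5 log2 differences were positive with a median of 0.21, and in 3 genes both TREM2-/- arrays lay above both WT arrays, as in 17.4% of all genes. The 5 genes were placed in this role by name and do not stand for all PPAR targets. Of 71 other genes of the pathway, described below, 35 lay above 0 and 36 below. Among them *Fabp1* differed by 0.74, *Plin5* by -0.30 and *Cd36* by -0.25. *Angptl4*, which encodes a secreted inhibitor of lipoprotein lipase and is a widely used readout of PPAR activity, gave 8.33 and 8.23 in TREM2-/- AM against 7.82 and 8.07 in WT AM. Its log2 difference of 0.33 (interval 0.078 to 0.59, adjusted p = 0.335 from limma) was the highest of the 36, and the WT arrays differed from each other by more than the TREM2-/- arrays did. *Pdk4*, whose product blocks pyruvate dehydrogenase and so spares glucose when fat is burned, gave 6.03 and 6.04 in TREM2-/- AM against 5.81 and 5.68 in WT AM. The log2 difference was 0.29 (interval 0.096 to 0.48, adjusted p = 0.269 from limma), the lowest adjusted p of the 36 genes. These are the only genes of the 36 with an interval wholly above 0, and neither passed the test.

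*Fabp3*, a carrier of fatty acids in the cytosol, gave 6.11 and 5.93 in TREM2-/- AM against 5.86 and 5.76 in WT AM, a log2 difference of 0.21 (interval -0.013 to 0.43). A second probe set of *Fabp3* gave 6.14 and 6.02 in TREM2-/- AM against 5.67 and 5.80 in WT AM, a log2 difference of 0.35. Both probe sets separated the genotypes in the same direction. *Plin2*, which coats lipid droplets, gave 12.33 and 12.21 in TREM2-/- AM against 12.30 and 12.31 in WT AM, a log2 difference of -0.032 (interval -0.22 to 0.16). *Pex11a*, which acts in the division of peroxisomes, differed by 0.058 (interval -0.15 to 0.26). In these last genes the arrays overlapped.

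**Figure D2:**
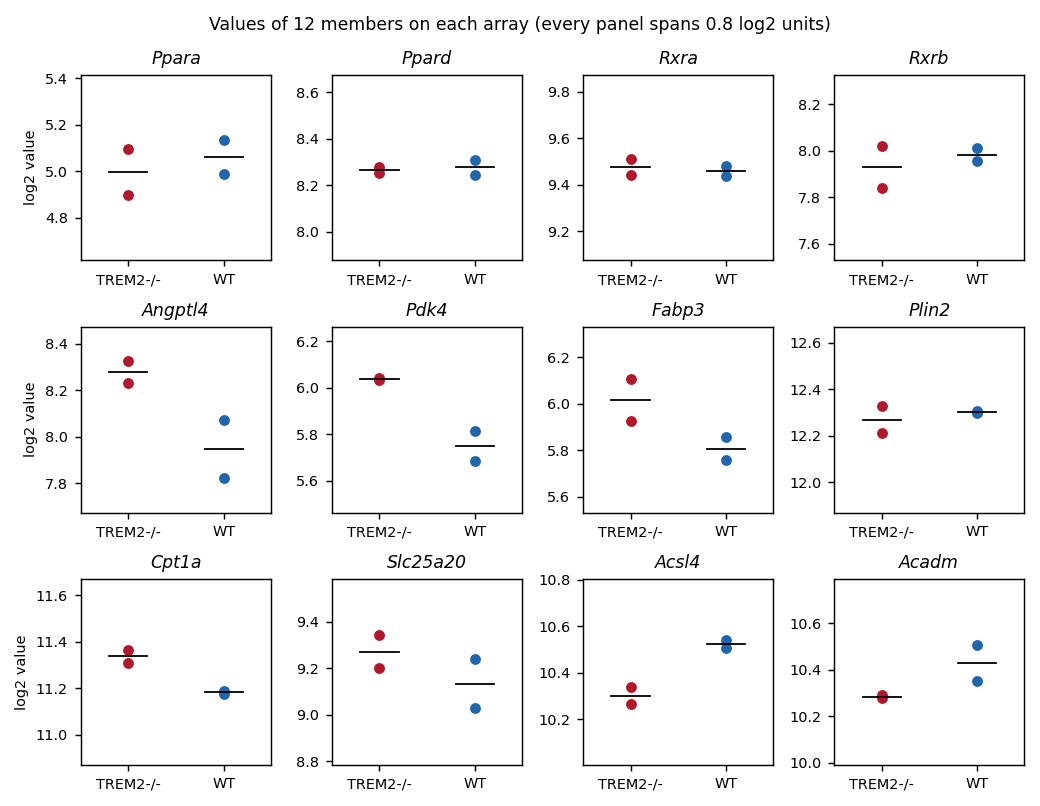
Log2 value on each array (points) and the mean of each genotype (lines) for 12 genes, TREM2-/- left and WT right, with every panel spanning 0.8 log2 units. The points of *Ppard*, *Ppara*, *Rxra* and *Rxrb* overlap between genotypes, while those of *Angptl4*, *Pdk4*, *Fabp3* and *Cpt1a* lie higher in TREM2-/- AM and those of *Acsl4* and *Acadm* lower.

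PPAR-RXR pairs bind a direct repeat of AGGTCA with 1 base between the repeats, known as a DR1 element, and promoters were searched for it because it is the sequence through which such targets are read. The windows were those of RefSeq on GRCm38.p6, 250 bases before to 50 bases after each gene's start, and 31 of the 36 genes were matched by symbol. *Angptl4*, *Ppargc1b*, *Crat*, *Acaa2* and *Decr1* were not analysed here. On both strands, a match with at most 2 mismatches in the 12 fixed bases was found in 4 of 31 genes, or 12.9%, against 4.40% of the 27025 genes in the table. At most 1 mismatch was met by 0 of 31, against 0.644% of all genes, which is too rare for 31 genes to tell either way. At most 3 mismatches were met by 29.0%, against 27.3%, so the higher share at 2 mismatches was not seen at 3. A single AGGTCA, on either strand, was found in 16.1% of the 31 genes and 18.1% of all genes, and it can overlap a DR1 match. The 4 matches are printed 5′ to 3′ in the direction that reads AGGTCA, with 8 bases on either side, and the capitals mark the 13 bases compared with the repeat.
Etfa, chr9:55512300-55512328, + strand, centred 71 bases before the start: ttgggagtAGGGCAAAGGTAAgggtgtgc
Plin2, chr4:86670264-86670292, + strand, centred 219 bases before the start: tctgacttAGGTCAGGGGTCCtgaaagct
Rxra, chr2:27709209-27709237, + strand, centred 69 bases before the start: ctgagtaaTGGTCATAGGCCAgtgggtgg
Slc25a20, chr9:108662134-108662162, + strand, centred 12 bases after the start: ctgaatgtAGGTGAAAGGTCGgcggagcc
None of these genes differed past the test, with log2 differences of 0.069 for *Etfa*, -0.032 for *Plin2*, 0.017 for *Rxra* and 0.14 for *Slc25a20*. The windows of *Pdk4*, *Cpt1a*, *Acsl4* and *Ppard* held no match at this limit, which says only that these letters are not in this window.

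For uptake and activation, 3 of 4 log2 differences were negative with a median of -0.14, and in each of those 3 genes both TREM2-/- arrays lay below both WT arrays, as in 25.4% of all genes. *Acsl4*, an acyl-CoA synthetase that prefers arachidonic acid, gave 10.27 and 10.34 in TREM2-/- AM against 10.54 and 10.51 in WT AM, a log2 difference of -0.22 (interval -0.40 to -0.043, adjusted p = 0.348 from limma). It was the lowest value of the 36 and the only interval wholly below 0. When the variance was fitted with an intensity trend and made robust, limma called *Acsl4* lower (adjusted p = 0.0285). With this fit 1.45% of all genes were called lower. The adjusted p from limma was then 0.0586 for *Angptl4*, 0.0819 for *Cpt1a* and 0.217 for *Pdk4*, so these did not pass. The cause of this dependence on the fit was not tested. *Slc27a1*, a fatty acid transport protein, gave 9.10 and 8.99 in TREM2-/- AM against 9.25 and 9.18 in WT AM, a log2 difference of -0.16 (interval -0.36 to 0.028), and its relative *Slc27a4* differed by -0.11 (interval -0.29 to 0.077). *Acsl5*, a second acyl-CoA synthetase, gave 11.68 and 11.72 in TREM2-/- AM against 11.67 and 11.65 in WT AM, a log2 difference of 0.044 (interval -0.13 to 0.22).

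The carnitine shuttle held the gene of its entry step among the larger positive values. *Cpt1a*, the carnitine palmitoyltransferase of the outer mitochondrial membrane and the rate-controlling step of mitochondrial fatty acid oxidation, gave 11.36 and 11.31 in TREM2-/- AM against 11.19 and 11.18 in WT AM. The arrays did not overlap, and the log2 difference was 0.15 (interval -0.020 to 0.33, adjusted p = 0.484 from limma). *Slc25a20*, the carrier of acylcarnitine across the inner membrane, differed by 0.14 (interval -0.11 to 0.38) and *Cpt2*, which restores acyl-CoA inside the mitochondrion, by 0.023 (interval -0.19 to 0.23). *Crat*, which acts on short acyl groups, differed by -0.080 (interval -0.27 to 0.11). The steps of the shuttle thus did not lie on 1 side of 0.

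The acyl-CoA dehydrogenases, each specific for a chain length, were split in direction. *Acadm*, for medium chains, gave 10.29 and 10.28 in TREM2-/- AM against 10.51 and 10.35 in WT AM, a log2 difference of -0.15 (interval -0.35 to 0.055). *Acadl*, for long chains, gave 10.48 and 10.61 in TREM2-/- AM against 10.48 and 10.44 in WT AM, a log2 difference of 0.089 (interval -0.11 to 0.28). *Acadvl*, for very long chains, differed by 0.11 (interval -0.099 to 0.33) and *Acads*, for short chains, by -0.010 (interval -0.24 to 0.22).

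Of the hydratase, dehydrogenase and thiolase steps in mitochondria, both subunits of the trifunctional protein lay near 0. *Hadha*, the alpha subunit of the trifunctional protein, gave 11.03 and 11.05 in TREM2-/- AM against 11.05 and 10.99 in WT AM, a log2 difference of 0.020 (interval -0.16 to 0.20). *Hadhb*, its beta subunit, differed by 0.034 on one probe set and 0.040 on the other. *Hadh*, a 3-hydroxyacyl-CoA dehydrogenase, gave 9.46 and 9.39 in TREM2-/- AM against 9.54 and 9.55 in WT AM, a log2 difference of -0.12 (interval -0.29 to 0.058), with arrays that did not overlap. *Acaa2*, the mitochondrial thiolase, differed by 0.041 (interval -0.15 to 0.23).

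The auxiliary enzymes, which prepare unsaturated fatty acids for the cycle, all lay within 0.1 of 0. *Eci1*, an enoyl-CoA isomerase, gave 8.51 and 8.44 in TREM2-/- AM against 8.59 and 8.53 in WT AM, a log2 difference of -0.082 (interval -0.26 to 0.10). *Ech1*, a dienoyl-CoA isomerase, gave 10.51 and 10.47 in TREM2-/- AM against 10.51 and 10.50 in WT AM, a log2 difference of -0.0077 (interval -0.18 to 0.17). *Eci2*, a second isomerase, differed by 0.076, and the reductase gene *Decr1* by -0.034.

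The electron transfer flavoproteins, which take electrons from the dehydrogenases, lay on both sides of 0. *Etfb*, the beta subunit, gave 10.06 and 9.95 in TREM2-/- AM against 10.14 and 10.11 in WT AM, a log2 difference of -0.12 (interval -0.30 to 0.066). *Etfa*, the alpha subunit, gave 10.36 and 10.43 in TREM2-/- AM against 10.26 and 10.39 in WT AM, a log2 difference of 0.069 (interval -0.13 to 0.27). The arrays of *Etfb* did not overlap and those of *Etfa* did. *Etfdh*, which hands the electrons to the respiratory chain, differed by 0.014 (interval -0.16 to 0.19).

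Peroxisomal beta-oxidation was represented by 2 genes. *Ehhadh*, the bifunctional enzyme and a known PPAR-alpha target in liver, gave 7.45 and 7.37 in TREM2-/- AM against 7.50 and 7.46 in WT AM, a log2 difference of -0.067 (interval -0.25 to 0.11). *Acaa1a*, a thiolase, gave 8.95 and 8.87 in TREM2-/- AM against 8.91 and 8.99 in WT AM, a log2 difference of -0.038 (interval -0.23 to 0.15). *Acaa1a* has a near-identical copy, *Acaa1b*, so its signal may hold both. The values of these genes differed by less than 0.1 between genotypes.

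The intervals set the differences between genotypes against the spread between these arrays, part of which may be technical, and not against the spread between mice. Of the 36, 33 spanned 0, and 35 lay wholly within a 1.5-fold difference in either direction, as did 95.5% of all genes. The exception was *Angptl4*, whose upper bound lay just past it. The lowest bound was 0.757-fold, for *Acsl4*. With 2 arrays per genotype the median standard error of the log2 difference was 0.079. The adjusted p ranged from 0.269 to 0.980, and a p above the threshold does not show that the genotypes were equal.

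**Figure D3:**
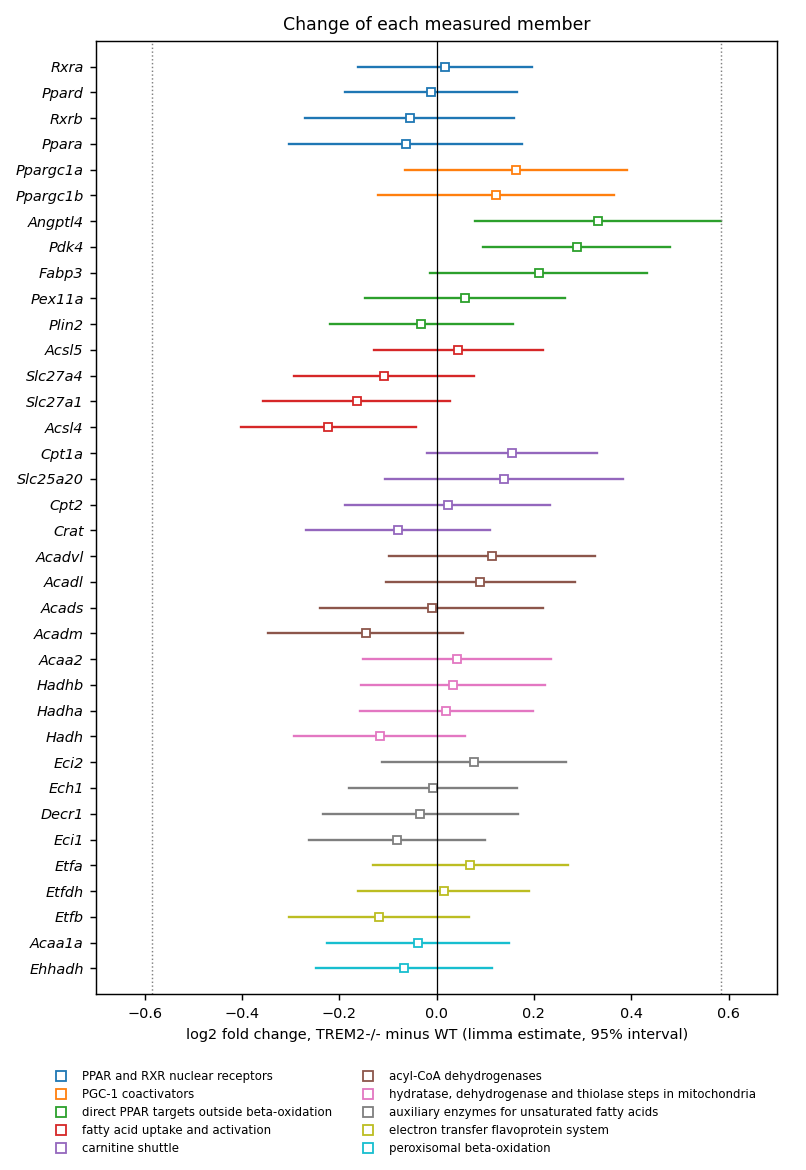
Log2 difference (squares, TREM2-/- minus WT) with its 95% interval (lines) for 36 genes, coloured and grouped by role, with dotted lines at a 1.5-fold difference. The intervals of *Angptl4* and *Pdk4* lie above 0 and that of *Acsl4* below 0, and the other 33 span 0.

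Of the 36 genes, 4 lie on chromosome 17, which also carries *Trem2*: *Ppard*, *Rxrb*, *Angptl4* and *Eci1*. Their log2 differences of -0.012, -0.055, 0.33 and -0.082 had no common direction. Their distance from *Trem2* and any effect of sequence linked to the targeted allele were not tested.

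Leaving out 1 array at a time turned the sign of 16 genes and kept that of the others. *Angptl4* ranged from 0.20 to 0.46, *Pdk4* from 0.22 to 0.35, *Fabp3* from 0.12 to 0.30 and *Cpt1a* from 0.13 to 0.18. *Acsl4* ranged from -0.26 to -0.19 and *Slc27a1* from -0.22 to -0.11. *Ppard* ranged from -0.045 to 0.021. Other genes kept their sign but moved widely, with *Slc25a20* at 0.032 to 0.24, *Etfa* at 0.0021 to 0.14, *Acadm* at -0.22 to -0.070, *Ppargc1a* at 0.061 to 0.27 and *Acadvl* at 0.041 to 0.19. The genes whose sign turned lay within 0.1 of 0 on all 4 arrays, apart from *Ppargc1b*.

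**Figure D4:**
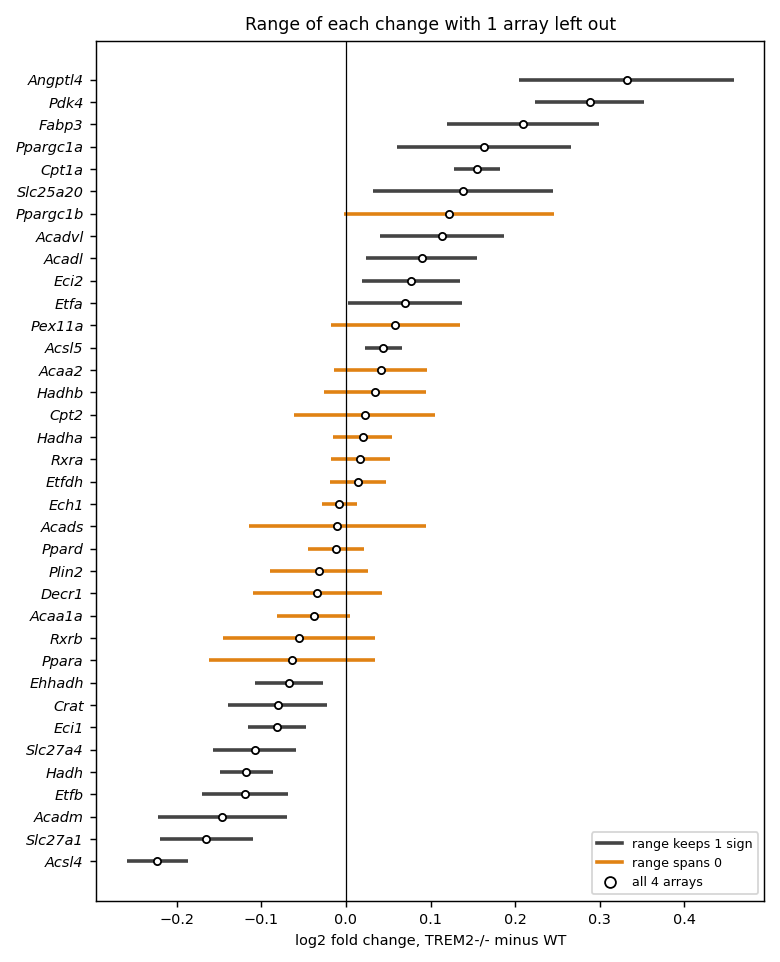
Log2 difference (TREM2-/- minus WT) of 36 genes on all 4 arrays (circles) and its lowest to highest value with 1 array left out (lines). Lines in orange span 0, as in 16 genes, while the lines of *Angptl4*, *Pdk4*, *Fabp3* and *Cpt1a* stay above 0 and those of *Acsl4* and *Slc27a1* below it.

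Other genes of the pathway, a list of 77 further receptors, cofactors, lipid droplet proteins, lipases and oxidation enzymes, had 71 members measured, of which 47 (66.2%) lay within 0.1 of 0, against 58.0% of all genes. Of the 71, 1 passed limma upward and 0 downward, against 0.431% and 0.135% of all genes. At an unadjusted p below 0.05 there were 4 genes on either side, against 4.64% and 6.9%, with a median log2 difference of -0.0003. *Fabp1*, a fatty acid carrier best known from liver and a PPAR-alpha target there, gave 7.78 and 7.55 in TREM2-/- AM against 6.91 and 6.95 in WT AM. Its log2 difference was 0.74 (interval 0.50 to 0.97, adjusted p = 0.0453 from limma). With any 1 array left out *Fabp1* was not called, and its log2 difference kept its direction. Such a fit leaves 1 array in a genotype and calls fewer genes in all. It cannot tell whether the call for *Fabp1* rested on single arrays. Over the other alternatives the adjusted p from limma or the t-test ranged from 0.000262 to 0.476. *Fabp1* also stands on the list of AM markers, of which *Car4* passed in the same direction. Whether it moved with the higher markers of other macrophages was not tested.

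The next largest log2 differences among these genes did not pass. *Plin5*, a lipid droplet protein of oxidative tissues, gave 5.70 and 5.81 in TREM2-/- AM against 6.10 and 6.01 in WT AM, a log2 difference of -0.30 (adjusted p = 0.266 from limma). *Cyp4a14*, a fatty acid omega-hydroxylase and PPAR-alpha target of mouse liver, gave 4.37 and 4.18 in TREM2-/- AM against 4.15 and 3.82 in WT AM, a log2 difference of 0.29, with all values below the lower quartile of the arrays. *Abhd5*, the activator of the triglyceride lipase of lipid droplets, gave 10.58 and 10.57 in TREM2-/- AM against 10.84 and 10.87 in WT AM, a log2 difference of -0.28 (adjusted p = 0.232 from limma). The arrays of all 3 genes did not overlap between genotypes, with *Cyp4a14* higher and *Plin5* and *Abhd5* lower in TREM2-/- AM. With the intensity trend, limma called *Abhd5* lower and also *Cd36*, which encodes a fatty acid and lipoprotein receptor and gave 12.34 and 12.36 in TREM2-/- AM against 12.59 and 12.60 in WT AM. That fit called 1.45% of all genes lower. Without the trend, *Cd36* did not pass, at a log2 difference of -0.25 (adjusted p = 0.283 from limma). *Pparg*, which encodes PPAR-gamma, gave 10.18 and 10.18 in TREM2-/- AM against 10.25 and 10.15 in WT AM, a log2 difference of -0.016 (interval -0.20 to 0.17). *Cd36* and *Pparg* were named after their values were seen.

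**Figure D5:**
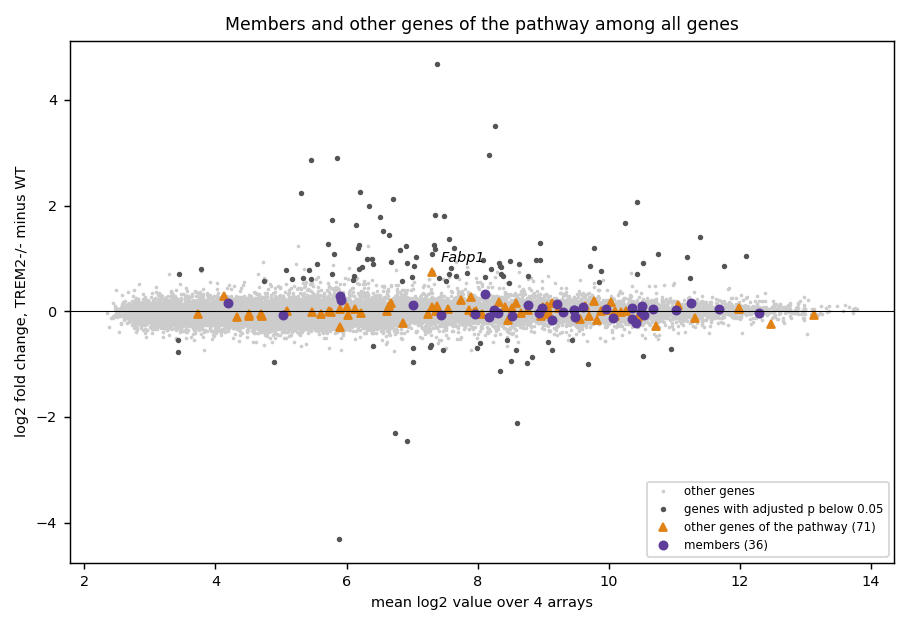
Log2 difference (TREM2-/- minus WT) against the mean log2 value over 4 arrays, for 36 genes of PPAR signalling and fatty acid oxidation (circles), 71 other genes of the pathway (triangles) and all other genes (dots, dark where the adjusted p was below 0.05). All circles lie within the band of genes that did not pass the test, and *Fabp1* is the 1 triangle that passed the test.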

How the data were processed

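The authors normalized the arrays together by RMA and deposited log2 values, 1 per probe set and array. RMA corrects the background and equalizes the distributions of the arrays, so a shift shared by all genes would not be seen, and scanner intensities were not analysed here. The submitters' processing notes name the genome build mm9. Probe sets with 1 symbol in the platform annotation were used, keeping the one with the highest mean for each of 19946 genes, without a filter on level. The test of TREM2-/- against WT was limma's moderated one (limma 3.58.1 under R 4.3.3), two-sided. It draws each gene's variance toward a value shared by all genes, so intervals and p-values rest on more than that gene's own arrays. Its p-values were adjusted by Benjamini-Hochberg over all genes, with a threshold of 0.05. SAM at a false-discovery rate of 5%, which the study's methods name, was run over all 6 assignments of the arrays as an alternative, beside those in the closing section. The fits were tested on simulated data.

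The genes and lists were chosen with earlier results of these data known. Values of every array were given for the genes that passed the test, for non-overlapping genes among the 8 largest log2 differences, for *Ppard*, *Angptl4* and *Pdk4*, and in each role for the largest log2 difference and the highest mean. Cell type markers and the other genes of the pathway were taken from written lists. Of these other genes, those that passed and the 4 with the largest log2 differences were named. Promoter windows, from RefSeq on GRCm38.p6, were not mixed with mm9 coordinates.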

Additional observations from a re-analysis of the deposited data

How the results depend on the processing

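Over 500 log2 differences of the 36 genes under the alternatives, 474 kept their direction and side of the threshold, and 22 turned sign. SAM, the t-tests, the intensity trend, the replicate block, the filter on level and all rows as probe sets reuse the same log2 difference. These alternatives could not turn a sign, so a kept direction there is no support. The other 4 passed under an alternative only. They were *Acsl4*, *Cpt1a* and *Pdk4* by the t-test without adjustment, and *Acsl4* by limma with the intensity trend. Leaving out 1 array turned the sign of 16 genes, whose log2 differences then ranged as follows: *Acaa1a* -0.081 to 0.0048, *Acaa2* -0.014 to 0.096, *Acads* -0.12 to 0.094, *Cpt2* -0.061 to 0.11, *Decr1* -0.11 to 0.043, *Ech1* -0.028 to 0.013, *Etfdh* -0.018 to 0.047, *Hadha* -0.015 to 0.055, *Hadhb* -0.026 to 0.094, *Pex11a* -0.018 to 0.13, *Plin2* -0.090 to 0.026, *Ppara* -0.16 to 0.034, *Ppard* -0.045 to 0.021, *Ppargc1b* -0.0022 to 0.25, *Rxra* -0.017 to 0.052, *Rxrb* -0.15 to 0.035. With probe sets of 1 gene averaged, *Ppargc1a* was -0.11. The 36 genes' median of 0.016 ranged from -0.016 to 0.023 with 1 array left out. The unadjusted t-test called 2 of the 36 genes higher and 1 lower, and 5 other pathway genes in each direction. The intensity trend with robust variance called 1 of the 36 genes and 2 other pathway genes lower. *Fabp1* was the 1 pathway gene called higher, and that count was 0 under the adjusted t-test, quantile normalization, all rows as probe sets and each left-out array, where the log2 difference was 0.62 to 0.85. All genes called, 113 with limma, numbered 196 with SAM, 1834 and 0 with the unadjusted and adjusted t-test, 669 with the intensity trend, 357 among 10783 genes with a mean log2 value of at least 6, 23 of 35557 rows as probe sets, and 28 to 49 with 1 array left out. The share of calls that were higher was 76.1%, against 90.3% with SAM, 42.6% with the unadjusted t-test, 56.7% with the trend, 58.0% with the filter, 91.3% over all rows and 78.6% to 87.8% with 1 array left out. The labels do not say whether same-numbered arrays were handled together. Deviations of same-numbered arrays correlated at -0.052, which cannot settle it with 2 arrays per genotype. With the replicate number as a block, 98 genes were higher and 31 lower, 0 of the 36 among them. Promoter matches numbered 0 of 31 genes at 1 mismatch and 9 (29.0%, against 27.3% of all genes) at 3 mismatches. Except where stated, the causes were not tested. The number of arrays limits the precision, and the lone array left in a genotype was assumed to vary like the others.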
